A study of Mus musculus with 11 samples.

Results

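The hippocampus on the side opposite a cortical infarct was compared with the hippocampus of untreated mice. The comparison rests on 3 of the 11 libraries of the series, chosen by their labels. They are the non-infarcted side 7 d after photothrombosis (PT), the non-infarcted side 7 d after PT with levetiracetam (LEV), and the naive hippocampus. All are whole hippocampus of C57BL/6N male mice. They were read by CAGE (cap analysis of gene expression), in which reads begin at the cap of an RNA. Rose bengal (35 mg/kg, intraperitoneal) and 30 min of LED light (565 nm, 200 mW) over a circle of 3.5 mm were used to clot vessels in the left parietal region. LEV, a drug against seizures whose target is SV2A on synaptic vesicles, was dissolved at 5 mg/mL in the water the mice drank. Treatment is described as beginning 1 month after PT, so how the 7 d animals received LEV is not known here. The mice were 8 to 10 or 65 to 85 weeks old, and neither the age behind each library nor the side of the naive hippocampus is given. The other libraries are the infarcted side of the 2 conditions at 7 d, both sides at 1 m without and with LEV, and both sides at 2 m after LEV withdrawal.

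Photothrombosis makes a focal infarct with a sharp edge. Near it, microglia and infiltrating phagocytes clear debris, and astrocytes become reactive, with more of the filament proteins GFAP and vimentin. The hippocampus lies below the irradiated cortex and is reached by its connections, and the opposite hippocampus is joined to it through the commissures. The 7 d libraries of the non-infarcted side therefore address whether the far hippocampus differs from naive, and in which genes. The naive mice were untreated, and no library is labelled as a sham procedure. Against naive, effects of the infarct and of the procedure cannot be told apart.

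Each group is 1 library, and whether libraries of both sides come from the same animals, or pool several, is not given. Totals were 14003626 reads for naive, 16053691 for 7 d and 17696949 for 7 d LEV, within 13382623 to 22377376 over all libraries. Values are CPM (reads scaled to a common library total), and differences are of log2(CPM + 1), which understates the change of low genes. Of 22377 genes, 16057 had a mean of at least 1 CPM and were tested. The median difference from naive over all of them was 0.01 at 7 d and 0.03 at 7 d LEV. Hippocampal neuron markers were present, with Prox1 of dentate granule cells at 56.9, 68.0 and 58.0 CPM and Neurod6 of pyramidal cells at 113, 120 and 146 CPM in naive, 7 d and 7 d LEV. Of all 12 pyramidal cell markers 7 were below naive in both libraries and 2 above, with medians of -0.32 and -0.18. Choroid plexus RNA, which comes from tissue beside the hippocampus, summed to 4518, 3617 and 4390 CPM over 15 markers in these libraries. Its transthyretin gene Ttr ranged from 36.2 to 4652 CPM over all libraries, and from 3031 to 4027 CPM over naive, 7 d and 7 d LEV. Below, "7 d" and "7 d LEV" stand for the non-infarcted side unless the infarcted side is named.

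Many of the glial and immune genes that were high on the infarcted side lay near their naive level on the opposite side. Of 16057 genes, 30 were lower on the non-infarcted than on the infarcted side at 7 d by limma (0.187%), and none was higher (0%), while 1121 had an unadjusted p under 0.05 (6.98%). edgeR's quasi-likelihood test on the recovered reads called 14, and DESeq2 called 34, all of them lower. The fit compared the sides within each condition over the 10 PT libraries, with 2 residual degrees of freedom. The LEV and no LEV pairs of a time served as its replicates. The spread is therefore how the side difference varied between these pairs at 7 d and at 1 m. On the non-infarcted side, 28 of the 30 genes were within 0.5 (log2) of naive in both libraries. The share of all genes within that limit was not counted. Over all 16057 genes the quartiles of the difference from naive lay 0.40 apart at 7 d and 0.39 apart at 7 d LEV. Lying near naive was thus common and not particular to the 30. The median difference of the 30 from naive was 0.10 at 7 d and 0.01 at 7 d LEV, against 1.34 and 0.90 in the infarcted libraries. The 30 were chosen by the gap between the sides in these libraries, so the gap between these medians follows from the choice. The naive library took no part in that test.

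Phagocyte genes showed the widest gaps between the sides. Spp1, which encodes the secreted protein osteopontin, was at 3.79 CPM in naive, 5.23 at 7 d and 2.66 at 7 d LEV, but at 48.0 and 13.7 CPM in the infarcted libraries without and with LEV. The side difference was -2.49 (log2, SE 0.30, adjusted p = 0.0251 by limma). Spp1 shares its locus and strand with Gm42793, which was also called, so the reads cannot be divided between them. Lyz2, the lysozyme of macrophages and microglia, was at 7.21 CPM in naive, 9.66 at 7 d and 9.27 at 7 d LEV, against 77.8 and 26.01 CPM on the infarcted side. Its side difference was -2.14 (SE 0.31, adjusted p = 0.0433). For both genes the naive and non-infarcted values lay close together and below both infarcted values. In both, the infarcted library without LEV was the highest of all 5.

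Mpeg1, a pore-forming protein of macrophages, was at 3.29, 4.86 and 4.92 CPM in naive, 7 d and 7 d LEV. On the infarcted side it was at 25.3 and 11.03 CPM, a side difference of -1.59 (SE 0.23, adjusted p = 0.0434 by limma). Mpeg1 was chosen after its values were seen. Of the 15 tested genes of the phagocyte activation list, none was past a log2 difference of 1 from naive in both non-infarcted libraries and none was called against naive by limma. The list's median difference from naive was 0.30 at 7 d and 0.24 at 7 d LEV, against 2.07 and 0.80 in the infarcted libraries. Gpnmb, a lysosomal glycoprotein of lipid-laden phagocytes, was at 2.07 CPM in naive, 4.61 at 7 d and 4.41 at 7 d LEV, against 43.1 and 7.39 CPM on the infarcted side. Its difference from naive of 0.84 (SE 0.22) did not pass (adjusted p = 0.111), nor did its side difference (adjusted p = 0.192). Mmp12, the macrophage elastase, was at 0.0714 CPM in naive, which is under the value of 3 reads (0.214 CPM), and at 0.997 and 1.70 CPM in the non-infarcted libraries (adjusted p = 0.112). Both were above naive in both libraries, and neither difference passed the test.

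Astrocyte genes gave the same picture. Gfap, the main astrocyte filament, was at 277 CPM in naive, 352 at 7 d and 253 at 7 d LEV, against 678 and 401 CPM in the infarcted libraries. The difference from naive was 0.11 (SE 0.19, adjusted p = 0.841), and the side difference was -0.80 (SE 0.10, adjusted p = 0.0283). The 2 non-infarcted libraries lay on either side of naive. Vim, which encodes vimentin, was at 22.4 CPM in naive, 26.5 at 7 d and 24.6 at 7 d LEV, against 76.1 and 54.0 CPM, a side difference of -1.30 (SE 0.10, adjusted p = 0.00722). Lcn2, a secreted lipocalin of strongly reactive astrocytes, was at 0.714, 1.56 and 1.19 CPM in naive, 7 d and 7 d LEV, and at 13.1 and 4.11 CPM on the infarcted side (adjusted p = 0.101 between the sides). Of the 12 tested genes of the reactive astrocyte list, 6 were above naive in both non-infarcted libraries and 4 below, and none passed against naive. Its median was 0.15 at 7 d and -0.01 at 7 d LEV.

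In the complement, interferon and antigen presentation lists 5 genes were called between the sides and none against naive. C4b, a complement component made by glia, was at 32.3 CPM in naive, 24.1 at 7 d and 21.9 at 7 d LEV, below naive in both, against 45.9 and 38.3 CPM on the infarcted side. Its side difference was -0.84 (SE 0.08, adjusted p = 0.018 by limma), and its difference from naive did not pass (-0.47, SE 0.19, adjusted p = 0.292). Ifitm3, an antiviral membrane protein induced by interferon, was at 31.9, 30.8 and 30.7 CPM in naive, 7 d and 7 d LEV. On the infarcted side it was at 59.7 and 64.8 CPM, a side difference of -0.99 (SE 0.13, adjusted p = 0.041 by limma). Its 3 values off the infarcted side were nearly equal.

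Of the class I antigen presentation genes, 3 were called between the sides. B2m, the light chain of class I molecules, was at 41.2 CPM in naive, 56.4 at 7 d and 62.95 at 7 d LEV, against 123 and 98.5 CPM (-0.88, SE 0.12, adjusted p = 0.041). H2-D1, a class I heavy chain, was at 55.3, 57.6 and 57.1 CPM, against 128 and 96.8 CPM (-0.94, SE 0.11, adjusted p = 0.0251). H2-K1, another heavy chain, was at 46.9, 37.3 and 40.1 CPM, against 76.2 and 66.4 CPM (-0.86, SE 0.12, adjusted p = 0.0433). The list medians from naive at 7 d and 7 d LEV were -0.17 and -0.03 for 8 complement genes, 0.19 and 0.23 for 12 interferon genes, and -0.01 and -0.22 for 11 antigen presentation genes. In the infarcted libraries they were 1.26 and 0.63, 0.87 and 0.81, and 0.41 and 0.73. Homeostatic microglia genes (13 tested) had medians of 0.14 and 0.13, against 0.98 and 0.38 on the infarcted side. None of these lists had a member past a log2 difference of 1 in both non-infarcted libraries or a call against naive by limma. In bulk tissue, fewer cells of a type and less RNA per cell cannot be told apart.

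Some of the 30 are histone entries. H2ac12, a histone H2A gene, was at 0.857, 1.43 and 1.19 CPM in naive, 7 d and 7 d LEV, against 12.2 and 4.73 CPM on the infarcted side (-1.91, SE 0.24, adjusted p = 0.0283). Hist1h2an was at 1.36, 1.18 and 1.19 CPM, against 6.86 and 4.63 CPM (-1.61, SE 0.19, adjusted p = 0.0251). H3c3 and H2ac5-ps hold the same reads in every library. They were at 2.07, 2.55 and 2.26 CPM against 18.8 and 8.17 CPM (-1.98, SE 0.23, adjusted p = 0.0251 by limma). Neat1, a long nuclear RNA, was level at 339, 340 and 340 CPM in naive, 7 d and 7 d LEV, against 508 and 536 CPM (-0.62, SE 0.09, adjusted p = 0.0434 by limma). It was chosen after its values were seen. The entries Gm27505, Gm28006 and Gm27533 lie inside Neat1 on the same strand, at nearly the same CPM, and are also among the 30. The 30 calls thus stand for fewer separate loci. With TMM scaling 4 of the 30 calls were left, and the 7 genes Spp1, Lyz2, Gfap, H2ac12, Hist1h2an, H3c3 and H2ac5-ps had adjusted p of 0.0653 to 0.0938, with all their differences still negative. Without the 7 d pair of libraries 195 genes were called, and without the 7 d LEV pair 262, in fits with less freedom left to estimate the spread.

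**Figure D1:**
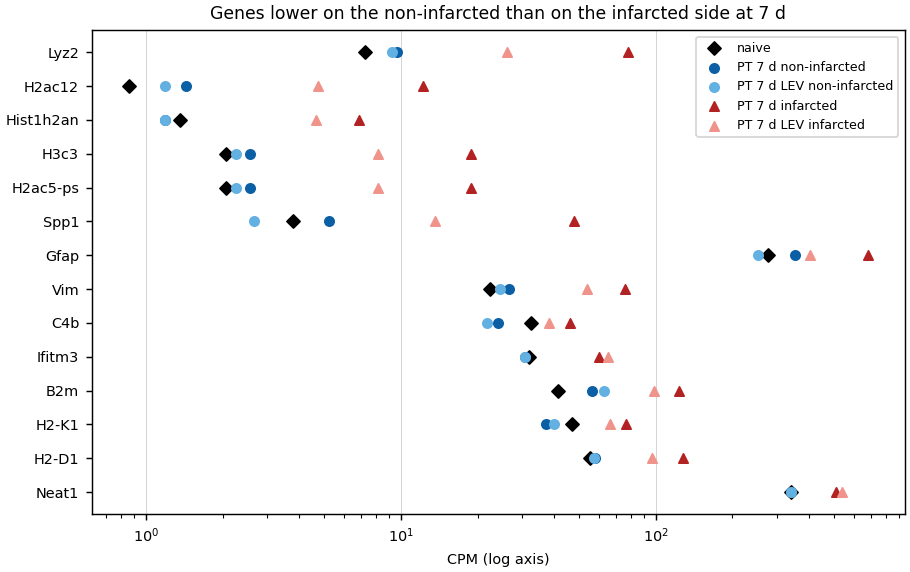
CPM (log axis) of the named genes lower on the non-infarcted than on the infarcted side at 7 d, 1 point per library. The naive diamond and the 2 blue non-infarcted points lie together for most genes, for example 22.4, 26.5 and 24.6 CPM for Vim. The red infarcted triangles lie to the right, and the genes were chosen by this gap between the sides.

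**Figure D2:**
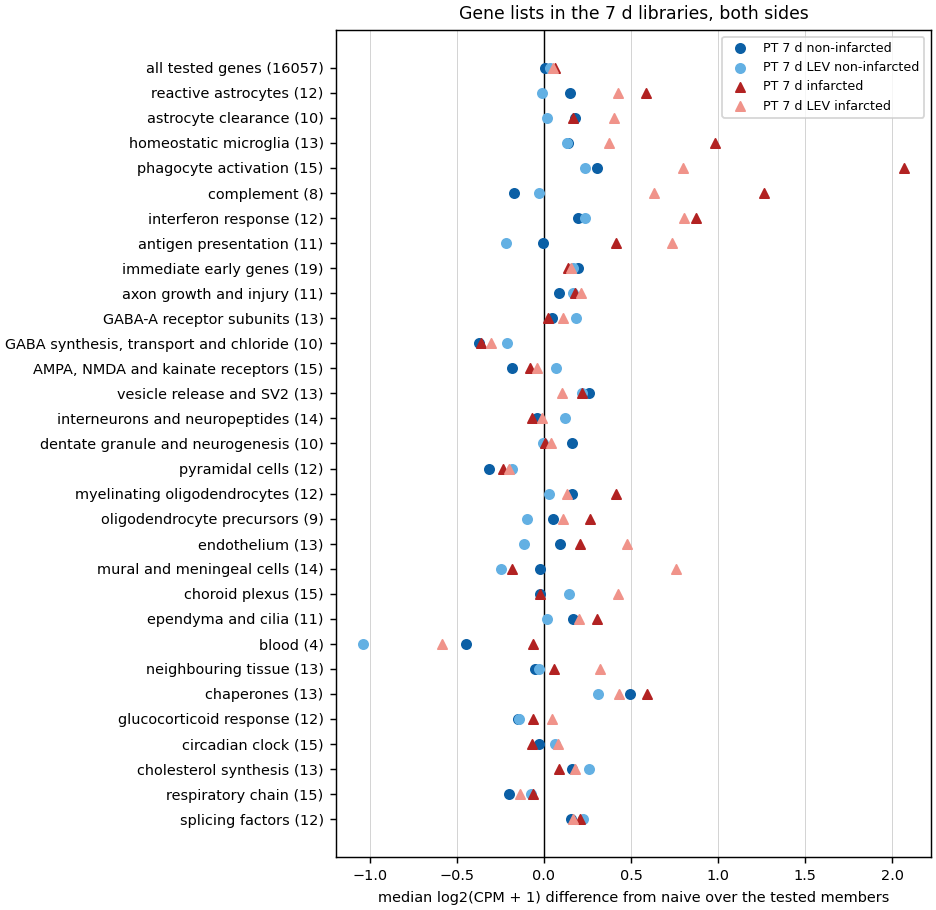
Median log2(CPM + 1) difference from naive over the tested members of each gene list (number tested in brackets), 1 point per 7 d library. Phagocyte activation lies at 0.30 and 0.24 on the non-infarcted side and at 2.07 and 0.80 on the infarcted side, while the blood list lies lowest at -0.45 and -1.04 on the non-infarcted side.

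Against naive, the non-infarcted hippocampus had more genes lower than higher. A log2 difference of at least 1 in the same direction in both libraries was seen for 36 genes higher (0.224%) and 123 genes lower (0.766%), in all 159 of 16057 (0.99%). This count has no test. limma, over the naive library and the 5 non-infarcted libraries, called 62 genes higher (0.386%) and 203 lower (1.26%), and 2462 had an unadjusted p under 0.05 (15.3%). The spread in that fit comes from the differences between LEV and no LEV at 7 d and at 1 m (2 residual degrees of freedom), and naive is assumed to vary like them. Leaving out the 7 d library left 3 calls, of which 1 (Git1) was among the 265, and leaving out the 7 d LEV library left 0, while leaving out either 1 m library gave 2454 and 2455.

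Of 13672 protein-coding genes tested, which are 85.1% of all tested, 111 were past the fold lower and 13 higher. Git1 (chromosome 11, 77493562 to 77507786, plus strand), a scaffold for GTPase signalling at synapses, was at 337 CPM in naive, 74.5 at 7 d and 60.5 at 7 d LEV. It was at 63.4 and 69.1 CPM on the infarcted side at 7 d, at 70.4 and 72.1 CPM at 2 m, and at 130 to 167 CPM in the 1 m libraries. The difference from naive was -2.31 (SE 0.15, adjusted p = 0.0015 by limma), and 0.0601 without the 7 d LEV library. Naive was above every other library for Git1, with the 1 m libraries between it and the rest. Against 2 m, which does not use naive, the difference at 7 d was -0.10 (SE 0.15, adjusted p = 0.778).

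Septin3, a filament-forming GTPase of nerve terminals, was at 584 CPM in naive, 151 at 7 d and 145 at 7 d LEV. The infarcted side had 136 and 155 CPM, 2 m had 135 and 136 CPM, and 1 m had 260 to 367 CPM. Its difference from naive was -1.97 (SE 0.15, adjusted p = 0.00252). Cacna1d, the pore subunit of an L-type calcium channel (Cav1.3), was at 73.6 CPM in naive, 14.9 at 7 d and 18.5 at 7 d LEV (-2.08, SE 0.17, adjusted p = 0.00252). It was at 15.0 and 17.4 CPM on the infarcted side, 16.5 and 17.7 CPM at 2 m, and 44.2 to 53.3 CPM at 1 m. Both genes had their 7 d and 2 m values together, naive highest and 1 m between.

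Mosmo, a membrane protein that limits Smoothened in hedgehog signalling, was at 82.5 CPM in naive, 18.6 at 7 d and 17.5 at 7 d LEV (-2.13, SE 0.23, adjusted p = 0.00599). Kinases were among these genes: Clk2, which phosphorylates splicing factors, was at 88.0, 22.7 and 18.3 CPM in naive, 7 d and 7 d LEV (-2.06, SE 0.22, adjusted p = 0.00579). Dyrk2, a related kinase, was at 93.6, 24.9 and 22.9 CPM (-1.93, SE 0.19, adjusted p = 0.0051). Tada2b and Sap30l, members of histone acetylation and deacetylation complexes, were at 59.98, 16.4 and 12.7 CPM and at 94.0, 27.1 and 23.9 CPM (adjusted p = 0.00579 and 0.0051). For these 5 genes both 2 m libraries were at or below 20.7 CPM and the 1 m libraries lay between 2 m and naive.

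Plin4, a lipid droplet coat protein, was at 26.4 CPM in naive, 5.48 at 7 d and 5.43 at 7 d LEV (-2.08, SE 0.19, adjusted p = 0.00437). It was at 4.26 to 7.54 CPM in the 8 other PT libraries. Git1 and Plin4 were the 2 genes of the 123 that lay a log2 of at least 1 below naive in all 10 PT libraries. Rny1, a small RNA bound by the Ro protein, had the largest difference but not a stable level. It was at 11.5 CPM in naive, 0.81 at 7 d and 0.17 at 7 d LEV, the last equal to 3 reads, and at 12.8 and 0.179 CPM in the 1 m libraries of the same side without and with LEV. Its difference from naive did not pass (-3.10, SE 1.06, adjusted p = 0.206).

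**Figure D3:**
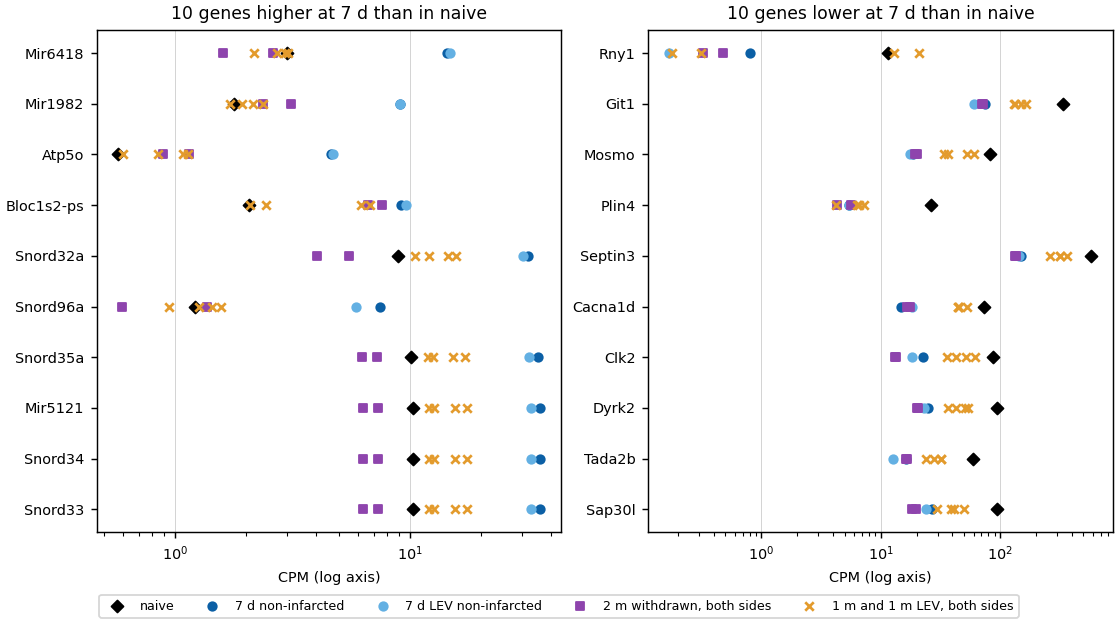
CPM (log axis) of the 10 genes furthest above and the 10 furthest below naive in both 7 d non-infarcted libraries, 1 mark per library (the infarcted 7 d libraries are not drawn). For the lower genes other than Rny1 and Plin4 the 2 m squares lie at or near the 7 d circles and the 1 m crosses lie between them and the naive diamond, as for Git1 at 337, 130 to 167 and 60.5 to 74.5 CPM.

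Among the 13 protein-coding genes past the fold upward, Eif1, which helps the ribosome choose the start codon, was at 54.1 CPM in naive, 131 at 7 d and 132 at 7 d LEV (1.26, SE 0.13, adjusted p = 0.0051 by limma). It was at 129 and 152 CPM on the infarcted side, 139 and 143 CPM at 2 m, and 50.2 to 58.5 CPM at 1 m. The naive and 1 m libraries thus lay together, far below the other 6. Eif4a2, an RNA helicase of translation initiation whose gene also holds small RNAs, was at 253, 616 and 529 CPM in naive, 7 d and 7 d LEV (1.17, SE 0.20, adjusted p = 0.0261). Rpl10, a protein of the large ribosomal subunit, was at 84.8, 196 and 191 CPM (1.18, SE 0.14, adjusted p = 0.00637), with 138 and 164 CPM at 2 m and 64.0 to 99.0 CPM at 1 m. These genes and those of the next paragraph lie outside the rule for naming genes and were chosen after their values were seen.

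Mef2c, a transcription factor of neurons that regulates synapse number, was at 37.8, 83.4 and 96.1 CPM in naive, 7 d and 7 d LEV (1.22, SE 0.15, adjusted p = 0.007), with 46.7 to 73.8 CPM at 1 m. Clip3, a linker of membranes and microtubules, was at 33.9, 81.2 and 68.8 CPM (1.12, SE 0.15, adjusted p = 0.00908), with 31.4 to 35.6 CPM at 1 m and 107 and 131 CPM at 2 m. Mark4, a kinase of microtubule-associated proteins, was at 12, 25.9 and 26.3 CPM (1.06, SE 0.16, adjusted p = 0.0161). Rims4, a small member of the presynaptic RIM family, was at 2.71, 8.85 and 7.40 CPM (1.29, SE 0.21, adjusted p = 0.0204). Clip3 was lower at 7 d than at 2 m by limma (-0.80, SE 0.15, adjusted p = 0.0482), so its values at these times were not equal.

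The genes were marked by how the other libraries stood against naive, in the direction of their own 7 d difference. The rule asked for genes that shared the difference at 2 m and had the opposite one at 1 m, as a mark of a possible library effect, and 2 lower and 0 higher genes met it. They were Gm3511 and Rpl9-ps6, a ribosomal protein gene copy whose reads may come from a near-identical gene. Rpl9-ps6 was at 10.4 CPM in naive, 3.24 at 7 d, 3.16 at 7 d LEV, 4.25 and 4.45 CPM at 2 m, and 10.6 to 25.6 CPM at 1 m (adjusted p = 0.0457 by limma, and 0.0597 with TMM scaling). A milder mark, shared at 2 m with every 1 m library under 0.5 in that direction, was met by 6 higher and 6 lower genes. The higher ones were Eif1, Rims4, Mark4, Clip3, Pcdhb9 and Gm45855. The lower ones were Stxbp3, Ppp1r9b, Cnnm4, Shf, Map3k10 and Gm22513. Stxbp3, a partner of syntaxins in membrane fusion, was at 23.1 CPM in naive, 4.67 at 7 d, 6.67 at 7 d LEV, 4.69 and 5.50 CPM at 2 m, and 19.9 to 24.3 CPM at 1 m.

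A difference at 7 d with every 2 m and 1 m library under 0.5 in that direction was met by 9 higher and 0 lower genes, and of these 9 none was also under 0.5 in both infarcted libraries. The remaining 21 higher and 113 lower genes were mixed. The limit on the infarcted side was applied only to those 9, so it says nothing of the other genes past the fold. Of the 36 higher genes 28 were past 1 in the same direction in both infarcted 7 d libraries, and of the 123 lower genes 96. Most lower genes still shared their difference at 2 m: 103 of the 123 were past 1 in both 2 m libraries, as were 13 of the 36 higher. Naive was the highest of all 11 libraries for 98 of the 123 (79.7%, against 8.67% of all tested genes). It was the lowest for 13 of the 36 (36.1%, against 8.26%). Choosing genes by their difference from naive favours such values. For the 123 lower genes the median difference from naive was -1.21 at 7 d, -1.39 at 7 d LEV, -1.37 and -1.18 on the infarcted side, -1.38 and -1.46 at 2 m, and from -0.85 to -0.35 in the 1 m libraries. For the 36 higher genes it was 1.35 and 1.31 on the non-infarcted side, 1.34 and 1.30 on the infarcted side, 0.74 and 0.54 at 2 m, and 0.19 to 0.42 at 1 m. All these differences share the naive library, which is 1 library and cannot be left out. The labels give no preparation or sequencing run, so time after PT and any shared handling of the 7 d and 2 m libraries cannot be told apart.

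**Figure D4:**
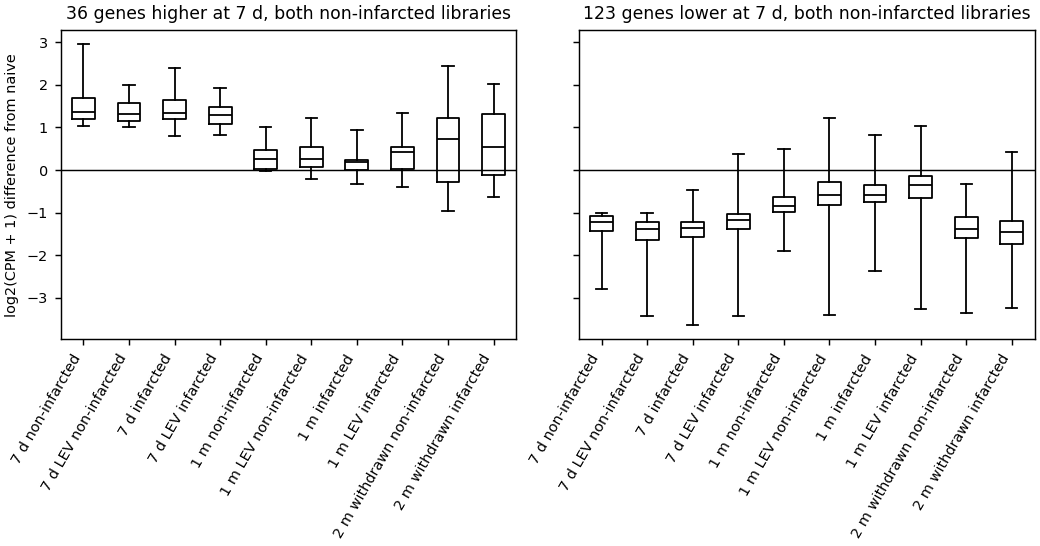
Differences from naive (log2(CPM + 1)) of the 36 higher and 123 lower genes in the 10 PT libraries. Boxes span the quartiles with the median as a line, and whiskers reach the lowest and highest gene. The first 2 boxes in each panel hold the values that chose the genes, and the lower genes have medians of -1.38 and -1.46 at 2 m against -0.85 to -0.35 at 1 m.

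Small RNA entries were 16 of the 36 genes past the fold upward. Of 128 snoRNA entries tested, 12 were past the fold higher and 2 lower, where 0.224% of all genes were higher and 0.766% lower. limma called 13 of them higher and 0 lower. The 2 entries past the fold lower are both named Rnu3a. They overlap on the plus strand of chromosome 10 from base 40258467, outside any protein-coding gene. Of 245 miRNA entries, 4 were past the fold higher and 1 lower. Most snoRNAs of the box C/D kind guide methylation of ribosomal RNA and are cut from introns of ribosomal protein and translation genes. CAGE reads the capped ends of RNA, so the values of entries inside such host genes are not levels of the mature miRNA or snoRNA. How reads were given to such entries is not stated, and Snord33 and Snord34, which do not overlap, hold the same reads in every library. The 16 higher entries hold 13 distinct sets of reads, and all lie inside a protein-coding gene on the same strand. Their median was 1.61 at 7 d and 1.48 at 7 d LEV, 1.498 and 1.411 on the infarcted side, -0.36 and -0.15 at 2 m, and 0.21 to 0.42 at 1 m, so these entries were not high at 2 m.

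Annotated sequences of small RNA entries with large differences are shown, and whether the reads came from these sequences is not known. The mature miRNAs of the leading miRNA entries, from RefSeq (GRCm38.p6), have the seed (bases 2 to 8) in capitals.
mmu-miR-6418-5p: uCAGGGGAagggaagagaugc
mmu-miR-6418-3p: aCUGCAACcuccuuucuccagg
mmu-miR-1982-5p: uUGGGAGGguccuggggagg
mmu-miR-1982-3p: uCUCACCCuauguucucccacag
No seed was shared among these. The snoRNA entries of the hosts Rpl13a (minus strand of chromosome 7) and Rack1 (plus strand of chromosome 11) are transcript sequences of GENCODE M21 (GRCm38), with TGATGA, the letters of a box C core, and the last CTGA, the letters of box D, in capitals where present.
Snord32a, chr7:45127382-45127464: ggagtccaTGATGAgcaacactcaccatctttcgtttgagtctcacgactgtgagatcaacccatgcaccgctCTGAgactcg
Snord33, chr7:45126864-45126947: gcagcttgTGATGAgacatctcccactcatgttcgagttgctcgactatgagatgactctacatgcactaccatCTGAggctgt
Snord34, chr7:45126601-45126670: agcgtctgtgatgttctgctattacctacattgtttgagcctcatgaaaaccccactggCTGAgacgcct
Snord35a, chr7:45126346-45126435: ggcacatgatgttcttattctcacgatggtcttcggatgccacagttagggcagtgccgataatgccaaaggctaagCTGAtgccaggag
Snord96a, chr11:48802032-48802112: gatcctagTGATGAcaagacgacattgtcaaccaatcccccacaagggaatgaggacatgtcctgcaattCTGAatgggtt
Of all 128 tested snoRNA entries, 50.8% hold TGATGA and 81.2% hold CTGA on the transcript strand, so these letters are common and describe no difference.

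Mir6418, inside Gnb2 and an Epo transcript model on chromosome 5, was at 2.999 CPM in naive, 14.4 at 7 d and 14.9 at 7 d LEV, and at 10.2 and 10.5 CPM on the infarcted side. It was at 1.60 and 2.62 CPM at 2 m and 2.17 to 3.04 CPM at 1 m. The difference from naive was 1.97 (SE 0.20, adjusted p = 0.0051 by limma), and that from 2 m was 2.59 (SE 0.20, adjusted p = 0.00335). All 4 libraries at 7 d lay above the other 7. Its host Gnb2, a G protein beta subunit, was at 255, 211 and 245 CPM in naive, 7 d and 7 d LEV (-0.16, adjusted p = 0.661).

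Snord32a was at 8.86 CPM in naive, 31.8 at 7 d and 30.2 at 7 d LEV, 31.9 and 27.7 CPM on the infarcted side, 4.03 and 5.50 CPM at 2 m, and 10.5 to 15.6 CPM at 1 m. It rose against naive by 1.70 (SE 0.19, adjusted p = 0.00637) and against 2 m by 2.67 (SE 0.19, adjusted p = 0.00335). The order was 7 d highest, then 1 m, naive and 2 m lowest, with no overlap between 7 d and the others. Snord33, Snord34 and Mir5121 carry the same reads, at 10.4, 35.8 and 32.7 CPM in naive, 7 d and 7 d LEV, and cannot be separated. Snord35a was at 10.1, 35.0 and 32.1 CPM (1.63, SE 0.21, adjusted p = 0.00778). Their host Rpl13a, a large subunit ribosomal protein, was at 1046 CPM in naive, 1353 at 7 d and 1397 at 7 d LEV (0.39, adjusted p = 0.308).

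Snord96a was at 1.21 CPM in naive, 7.48 at 7 d and 5.88 at 7 d LEV (1.79, SE 0.26, adjusted p = 0.0141), and its host Rack1, a ribosomal scaffold protein, was at 100.6, 141 and 166 CPM (0.60, adjusted p = 0.149). Snord95, in the same host, was at 0.786, 3.74 and 2.94 CPM (1.27, SE 0.26, adjusted p = 0.0468), a call lost with TMM scaling. Mir1982, in Oaz1, was at 1.79, 9.09 and 9.10 CPM (1.86, SE 0.22, adjusted p = 0.00637), and Oaz1, an inhibitor of polyamine synthesis, at 15.7, 25.5 and 30.1 CPM (0.78, adjusted p = 0.177). Rnu73b, in the ribosomal protein gene Rps3a1, was at 0.50, 3.30 and 2.66 CPM (1.40, SE 0.26, adjusted p = 0.0329). Mir677, in Atp5b and with the same reads as the snoRNA entry Gm50449, was at 8.28, 19.1 and 17.8 CPM (1.06, SE 0.22, adjusted p = 0.0531). Atp5o, at 0.571, 4.61 and 4.69 CPM, is a long gene model that overlaps Donson, Cryzl1 and another Atp5o entry, and Bloc1s2-ps, at 2.07, 9.16 and 9.66 CPM (adjusted p = 0.0515), is a pseudogene, so the origin of their reads is uncertain.

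Lists of inhibitory transmission held no call against naive. Of 10 genes of GABA synthesis, transport and chloride, 8 were below naive in both libraries and 0 above, and 0 were called. Of all 16057 genes, 5876 were below in both and 6819 above. The list's median was -0.37 at 7 d and -0.21 at 7 d LEV, against 0.01 and 0.03 for all genes. Slc6a11, the astrocyte transporter GAT3, was at 102 CPM in naive, 61.2 at 7 d and 45.2 at 7 d LEV (-0.95, SE 0.27, adjusted p = 0.132 by limma). Slc12a2, the chloride importer NKCC1, was at 54.4, 33.5 and 32.6 CPM (-0.70, SE 0.17, adjusted p = 0.0927). In the infarcted libraries at 7 d the list's median was -0.36 and -0.30. It was -0.42 and -0.35 at 2 m (infarcted and non-infarcted side), and -0.063 to 0.145 in the 1 m libraries. The list was thus below naive at 2 m as at 7 d, and not so at 1 m. Time after PT and any shared handling of the 7 d and 2 m libraries cannot be told apart.

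Among 13 GABA-A receptor subunits 7 were above naive in both libraries and 3 below, with medians of 0.05 and 0.18, and 0 were called. Of 15 AMPA, NMDA and kainate receptor genes, 5 were above and 7 below, with 0 called. Grin2a, an NMDA receptor subunit, was at 300.4, 228 and 227 CPM (-0.40, SE 0.13, adjusted p = 0.186).

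Of 13 genes of vesicle release and SV2, 9 were above naive in both libraries and 2 below, and 1 was called. Stx1a, a syntaxin of synaptic vesicle fusion, rose from 35.6 CPM in naive to 61.1 at 7 d and 58.0 at 7 d LEV (0.73, SE 0.15, adjusted p = 0.0481), a call lost with TMM scaling (adjusted p = 0.0597) and with edgeR (0.0623). Sv2a, which encodes the protein that LEV binds, was level at 134, 139 and 135 CPM (0.03, SE 0.13, adjusted p = 0.948). Snap25, another fusion protein, was at 1453, 1971 and 1961 CPM (0.44, SE 0.19, adjusted p = 0.316), and Syn1, a vesicle phosphoprotein, at 316, 206 and 201 CPM (-0.63, SE 0.16, adjusted p = 0.0981).

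The neuron subtype lists held 1 call against naive. Pou3f1, a transcription factor of pyramidal cells, fell from 93.4 CPM in naive to 46.5 at 7 d and 36.6 at 7 d LEV (-1.16, SE 0.18, adjusted p = 0.0175), and it was at 39.1 and 42.5 CPM on the infarcted side. It was the 1 call among 12 pyramidal cell genes, of which 7 were below naive in both libraries. Of 14 interneuron and neuropeptide genes 0 were called, with Vip, a peptide of interneurons, at 12.9, 5.67 and 6.67 CPM (-0.95, SE 0.25, adjusted p = 0.106). Of 10 dentate granule and neurogenesis genes 0 were called, with Dcx, a marker of newborn neurons, at 6.498, 9.84 and 8.70 CPM (0.45, SE 0.23, adjusted p = 0.387). Of 19 immediate early genes, which neuronal activity induces, 11 were above naive in both and 4 below, with 0 called, and Junb was at 30.2, 47.8 and 50.4 CPM (0.68, SE 0.14, adjusted p = 0.0531). In the axon growth and injury list (11 genes) 0 were called, with Sox11 at 27.7, 18.1 and 12.7 CPM (adjusted p = 0.11).

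Of 13 chaperone genes, 10 were above naive in both libraries and 2 below, where 6819 of all 16057 genes were above and 5876 below. The list had medians of 0.50 at 7 d and 0.31 at 7 d LEV, and 1 was called. Manf, a secreted protein induced by stress of the endoplasmic reticulum, rose from 42.5 CPM in naive to 67.9 and 69.3 CPM (0.68, SE 0.14, adjusted p = 0.0457), a call lost with TMM scaling (adjusted p = 0.0597) and with edgeR (0.0623). It was at 73.7 and 65.7 CPM on the infarcted side, 27.8 and 36.1 CPM at 2 m, and was also higher at 7 d than at 2 m (1.27, SE 0.14, adjusted p = 0.00855). Calr, a calcium-binding chaperone of that compartment, was at 77.6, 145 and 129 CPM (0.81, SE 0.17, adjusted p = 0.0568), and Hspa8, a cytosolic chaperone, at 871, 1370.0 and 1293 CPM (0.61, SE 0.17, adjusted p = 0.121).

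Glucocorticoid response genes held 2 calls of 12, both lower. They were Plin4, given above, and Cdkn1a, an inhibitor of the cell cycle, which fell from 14.4 CPM in naive to 6.35 at 7 d and 6.05 at 7 d LEV (-1.10, SE 0.22, adjusted p = 0.0456, and 0.0566 with TMM scaling). Fkbp5, the list's co-chaperone of the glucocorticoid receptor, was at 65.7, 53.8 and 52.3 CPM (adjusted p = 0.417). Of 15 respiratory chain genes, 9 were below naive in both libraries and 2 above, 1 was past the fold and 0 were called. Of all 16057 genes, 5876 were below in both and 6819 above. The list's median was -0.20 at 7 d and -0.07 at 7 d LEV, -0.44 and -0.46 at 2 m, and 0.14 to 0.25 in the 1 m libraries. The list was thus below naive at 2 m as at 7 d, and above it at 1 m. Time after PT and shared handling cannot be told apart here. Atp5e, a subunit of ATP synthase, was at 371, 172 and 171 CPM in naive, 7 d and 7 d LEV, 180 and 198 CPM at 2 m, and 416 to 754 CPM at 1 m (-1.11, SE 0.23, adjusted p = 0.0531).

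Summed blood RNA was lower than in naive in every PT library, not only on the non-infarcted side at 7 d. Hbb-bs, an adult beta globin of red cells, was at 91.0 CPM in naive, 33.8 at 7 d and 8.65 at 7 d LEV (-2.33, SE 0.57, adjusted p = 0.0858 by limma). Hbb-bt, its neighbour, fell from 17.1 CPM to 6.29 and 3.11 CPM (-1.73, SE 0.32, adjusted p = 0.0352). Of 4 blood genes tested, these 2 were lower and S100a8 and S100a9, of neutrophils, were above naive in both libraries without passing. The blood list summed to 112 CPM in naive, 46.5 at 7 d and 15.7 at 7 d LEV, and its part in the other differences was not tested.

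The lists of other cells and functions had 0 calls against naive and 0 genes past the fold. Medians at 7 d and 7 d LEV were 0.18 and 0.02 for astrocyte clearance, 0.16 and 0.03 for myelinating oligodendrocytes, 0.05 and -0.10 for oligodendrocyte precursors, 0.09 and -0.11 for endothelium, and -0.03 and -0.25 for mural and meningeal cells. They were -0.03 and 0.14 for choroid plexus, 0.17 and 0.02 for ependyma and cilia, -0.05 and -0.03 for neighbouring tissue, -0.03 and 0.06 for the circadian clock, 0.16 and 0.26 for cholesterol synthesis, and 0.16 and 0.22 for splicing factors. Aqp4, the water channel of astrocyte endfeet, was at 26.4, 39.7 and 35.7 CPM in naive, 7 d and 7 d LEV (0.50, SE 0.15, adjusted p = 0.15), and Gja1, an astrocyte gap junction protein, at 88.7, 147 and 131 CPM (0.64, SE 0.13, adjusted p = 0.0531). Flt1, an endothelial VEGF receptor, was at 60.1, 37.1 and 35.9 CPM (-0.70, SE 0.16, adjusted p = 0.0675). A difference that did not pass the test does not show that levels were equal.

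A contrast of the 7 d with the 2 m non-infarcted side does not use the naive library as an end. By limma 119 genes were higher at 7 d (0.741%) and 30 lower (0.187%), and 2768 had an unadjusted p under 0.05 (17.2%), while edgeR called 71 and DESeq2 345. Without either 7 d library 0 were called, and without either 1 m library 2831 and 2830. The 2 m side is 1 library and had LEV and its withdrawal. Its choroid plexus gene Ttr was at 1211 CPM, against 3031 and 3781 CPM at 7 d.

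The genes named as lower at 7 d than at 2 m follow. Ccl2, a chemokine for monocytes, was at 0.436 CPM at 7 d and 0.226 at 7 d LEV, against 7.24 CPM at 2 m and 0.857 in naive (-2.63, SE 0.39, adjusted p = 0.0267). Thbs1, a matrix glycoprotein, was at 1.74 and 1.81 CPM against 8.90 CPM at 2 m and 2.36 in naive (-1.83, SE 0.22, adjusted p = 0.0121). Cdkn2a, an inhibitor of cell cycle kinases, was at 0.498 and 0.622 CPM against 4.15 CPM at 2 m and 0.429 in naive (-1.72, SE 0.28, adjusted p = 0.0346). In these 3 genes the 7 d libraries lay near naive and the 2 m library stood apart.

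Bgn, a small matrix proteoglycan, was at 8.596 and 8.985 CPM at 7 d and 7 d LEV against 25.5 CPM at 2 m and 7.86 in naive (-1.43, SE 0.23, adjusted p = 0.0366). Selenop, a secreted selenium carrier, was at 175 and 150.4 CPM against 418 CPM at 2 m and 115 in naive (-1.36, SE 0.21, adjusted p = 0.0312). Mobp, a myelin protein and the 1 call among 12 myelinating oligodendrocyte genes, was at 181 and 178 CPM against 378 CPM at 2 m and 199 in naive (-1.07, SE 0.14, adjusted p = 0.0136). The genes furthest above 2 m were the small RNA entries Snord32a, Mir6418 and Snord96a (2.26, SE 0.26, adjusted p = 0.0118), and the entry of Snord33, Snord34 and Mir5121 (2.09, SE 0.21, adjusted p = 0.00705).

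The lower genes had GC-rich transcript starts. Over the first 300 bases of the longest transcript, median GC was 75.5% (quartiles 61.2% and 79.7%) for the 123 lower genes (122 with a value), 51.5% for the 36 higher genes and 60% for all tested. Among genes of 80% GC or more, 28 of 259 were past the fold lower (10.8%) and 0 higher. Between 70% and 80% it was 1.95%, and in the bins below 70% it was 0.318% to 0.345%. The median of all 259 genes in the top bin was -0.29 at 7 d and -0.34 at 7 d LEV, -0.36 and -0.25 on the infarcted side, -0.41 and -0.45 at 2 m, and -0.25 to -0.05 at 1 m. The part of GC content in the differences from naive was not tested.

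**Figure D5:**
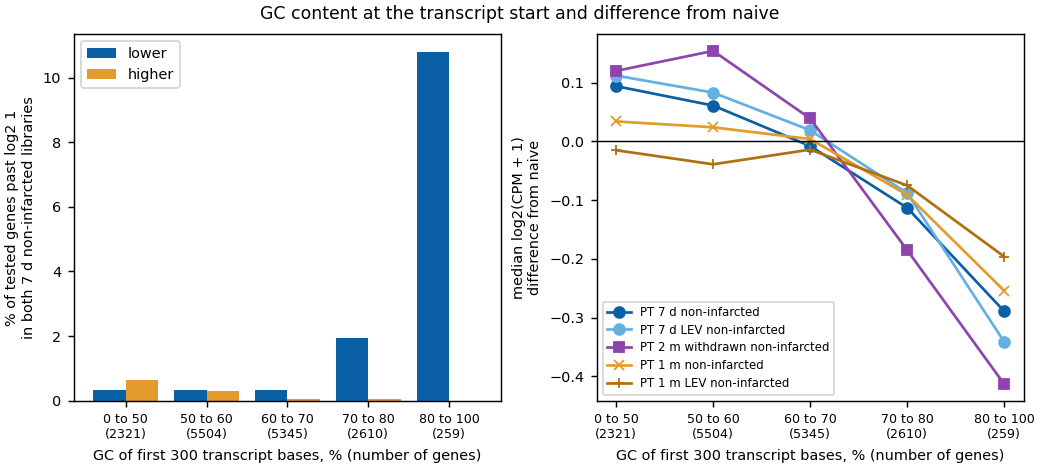
Left, percent of tested genes past a log2 difference of 1 in both 7 d non-infarcted libraries, by GC content of the first 300 transcript bases; right, median difference from naive of all tested genes in each bin for the 5 non-infarcted libraries (vertical axes differ). The percent lower is 0.345 in the bin under 50% GC and 10.8 in the bin of 80% and over, where the 7 d medians are -0.29 and -0.34.

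The promoters of Mosmo, lower at 7 d, and of Eif1 and Mef2c, higher at 7 d, are given as single examples. They do not compare lower with higher genes. Each runs from 250 bases before to 50 after the start (RefSeq, GRCm38.p6), in the direction of transcription, with GGGCGG and its reverse complement CCGCCC in capitals, neighbouring matches run together. Mosmo and Eif1 hold several of them, and Mef2c holds none in this window.
Mosmo, chr7:120677370-120677669, plus strand: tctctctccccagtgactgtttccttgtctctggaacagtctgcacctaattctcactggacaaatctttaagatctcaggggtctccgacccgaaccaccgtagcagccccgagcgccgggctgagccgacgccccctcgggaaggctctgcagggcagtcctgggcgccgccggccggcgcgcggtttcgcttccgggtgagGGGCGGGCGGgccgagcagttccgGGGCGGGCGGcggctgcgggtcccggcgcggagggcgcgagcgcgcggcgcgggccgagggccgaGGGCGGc
Eif1, chr11:100319699-100319998, plus strand: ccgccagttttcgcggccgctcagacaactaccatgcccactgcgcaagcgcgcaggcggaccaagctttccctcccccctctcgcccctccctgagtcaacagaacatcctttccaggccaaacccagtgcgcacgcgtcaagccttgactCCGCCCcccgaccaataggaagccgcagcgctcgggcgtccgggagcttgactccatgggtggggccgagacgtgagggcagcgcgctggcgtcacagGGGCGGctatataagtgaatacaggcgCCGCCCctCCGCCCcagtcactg
Mef2c, chr13:83503784-83504083, plus strand: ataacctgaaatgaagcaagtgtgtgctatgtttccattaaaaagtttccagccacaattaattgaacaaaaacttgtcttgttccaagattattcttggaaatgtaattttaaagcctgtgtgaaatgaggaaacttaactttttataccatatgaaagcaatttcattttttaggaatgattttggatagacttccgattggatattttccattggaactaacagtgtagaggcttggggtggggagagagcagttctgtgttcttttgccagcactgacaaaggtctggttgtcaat
Either form was found in 35.9% of all 27025 promoters of the table, and in 63.9% of the 11574 that matched a tested gene. Only 73.6% of the symbols of the lower genes had a promoter in the table, under the 80% needed, so no share is compared between the sets.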

How the data were processed

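CAGE reads of 11 hippocampal libraries, 1 per group, were deposited by the authors as CPM per gene. Multiplied by the library total, 100% of CPM values came out whole (tolerance 0.0001), and edgeR on these reads called 226 genes against naive. The build GRCm38 and the tools HISAT2 2.0.5, BWA 0.7.17 and DESeq2 1.20.0 are named per the submitters' processing notes, with no role stated. A count of 0 allows 3 reads (0.134 to 0.224 CPM), for counting error only. Identifiers were matched to GENCODE M21 (22335 of 22377), and 624 genes shared their reads with another.

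Values were tested as log2(CPM + 1) with limma 3.58.1 (trend, Benjamini-Hochberg, 0.05) in R 4.3.3, with edgeR 4.0.16 and DESeq2 1.42.0 on recovered reads as alternatives. p-values measure only the spread between these libraries, which may be technical. Differences from naive of at least 1 (log2) in both libraries were counted without a test. Scripts were checked on simulated data. The members and the 30 gene lists were chosen with earlier results of these data known. Named genes were up to 10 per direction by the smaller of both differences, up to 6 per direction called by limma or changed at 7 d alone, up to 4 per list or marked class, and Gfap and Sv2a, unless said otherwise. Genes with only a clone name were counted. Some members of the lists are counted in them and not reported here by name.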

Additional observations from a re-analysis of the deposited data

Results flagged for a closer look

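Values differed between the sides at 7 d, by the limma contrast within conditions, for 30 genes, a count that was 4 with TMM scaling and 0 without the condition block. On the log2 scale the non-infarcted minus infarcted difference was -2.49 for Spp1, -2.14 for Lyz2, -1.98 for H3c3 and for H2ac5-ps (the same reads), -1.91 for H2ac12, -1.61 for Hist1h2an and -1.30 for Vim. It was -0.99 for Ifitm3, -0.94 for H2-D1, -0.88 for B2m, -0.86 for H2-K1, -0.84 for C4b, -0.80 for Gfap and -0.62 for Neat1.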

How the results depend on the processing

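No called value changed sign among the results recomputed, which for the difference between sides were 7 of the 30 called genes. The count past the fold (159) was 85 with a pseudocount of 5, 706 at a threshold of 1.5-fold (33.7% higher, against 22.6%), 26 at 3-fold, and 200 to 269 with 1 of the 7 d libraries left out. It was 192 with a pseudocount of 0.5 and 160 with TMM scaling. Of the 159 genes, all had counting intervals apart from naive's (exact Poisson, 95%).

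The limma counts against naive (265) and against 2 m (149) were 0 and 0 without the filter on low values, 42 and 16 without a trend, and 823 and 619 with LEV as a covariate. They were 0 to 2455 and 0 to 2831 with 1 library left out, and 432 and 345 with DESeq2. Against 2 m they were 84 with TMM scaling and 71 with edgeR. The 3 libraries alone gave 2460 against naive, with 1 residual degree of freedom less than the main fit. The count between sides (30) was 47 with a pseudocount of 5, 4 with TMM scaling, 0 without the condition block, 14 with edgeR, and 195 to 262 with 1 pair of libraries left out (36 higher and 226 lower without the 7 d LEV pair). Leaving out pairs, edgeR and DESeq2 between sides, and quantile normalization in limma were added after seeing the data. The cause of these changes was not tested. TMM and quantile scaling moved the median of all genes by under 0.1. Of the list medians, 24 values moved by more than the spread between the 7 d libraries and 216 did not.

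No pairing by animal was possible because each group is 1 library and the labels carry no animal or replicate numbers. The comparison of the sides was blocked by condition only. Depth limits genes near 3 reads, such as Mmp12 and Rny1.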
